A study of Mus musculus with 9 samples.

Results

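Integrins, the laminin chains they bind, and the proteins that tie both into the basement membrane were followed in hair follicle stem cells of mice aged 3, 19 and 24 months. The genes were taken by symbol: every integrin alpha or beta gene and every laminin alpha, beta or gamma gene with a numbered name, plus Itgav, Nid1, Nid2, Hspg2, Agrn, Cd151 and Dst. The rule found 37 of the 37980 rows of the deposited table, and no measured value entered it. Of these, 23 were expressed highly enough to be tested, and 14 were not tested because fewer than 3 libraries reached 1 FPKM.

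The cells came from back and belly skin of male C57BL/6J mice and were sorted for surface CD34 and high CD49f, with 3 libraries at each of the 3 ages and 9 in all. CD49f is the integrin α6 protein encoded by Itga6, so 1 of the genes described here was also part of the gate. The 3 groups share strain, sex, tissue and sort, and differ by label in age alone. Whether each library is a separate animal is not stated in the labels. The p-values here therefore measure variation among libraries only, and part of it may be technical. The serial numbers in the labels are consecutive through the 19- and 24-month libraries and leave a gap before them after the 3-month ones, so a difference in handling between these sets cannot be told apart from age.

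Values are FPKM, fragment counts scaled by transcript length and by the size of the library, which set genes of different length on 1 scale. Tests were made with limma on log2(FPKM + 1) over 11509 protein-coding genes, all 9 libraries in 1 model, two-sided, and a gene is said to have risen or fallen where its Benjamini-Hochberg adjusted p is under 0.05. Changes are differences on that log2 scale, which understates the change of genes near 1 FPKM. Errors with FPKM are SDs over 3 libraries, and errors with log2 changes are limma standard errors. Libraries of the same age correlated at 0.977 to 0.986 and libraries of different ages at 0.965 to 0.985, on log2 values over the tested genes. Cd34 stood at 403 to 632 FPKM over the 9 libraries, while the bulge keratin Krt15 had an entry of 0 in all 9 and the basal keratin Krt5 in the 3 libraries at 19 months, and such zeros can be failed estimates. Of 12 bulge markers apart from Itga6, 10 were tested. Of these, 2 rose at 19 against 3 months and 1 fell at 24 against 3 months. Lgr5 averaged 121, 78.7 and 59.2 FPKM at 3, 19 and 24 months, and Sox9 117, 186 and 141.

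Integrins are pairs of an alpha and a beta chain that span the membrane and hold the cell to the matrix outside. Laminins are trimers of an alpha, a beta and a gamma chain and form the sheet to which basal keratinocytes attach. The integrin α6β4 binds a laminin that contains the chains α3 and β3 (Lama3 and Lamb3) and, with dystonin, plectin and collagen XVII, forms the hemidesmosome that anchors the keratin network. In skin, loss of either of these chains causes severe blistering. The integrin αvβ6 is known in epithelia for releasing active TGF-β from its latent complex, and perlecan (Hspg2), agrin and the nidogens bind laminins and link them with other parts of the basement membrane.

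Lamb3, Itgb6, Hspg2 and Lamb1 were the 4 of the 37 genes that fell with age, and their promoters are shown because these 4 genes carry the results below. Each sequence runs from 250 bases before to 50 bases after the most upstream start that RefSeq lists, on the strand of the gene and in the build GRCm38.p6. Capitals mark the GC box, searched as GGGCGG on both strands, so that CCGCCC is the same box on the opposite strand.
Lamb3, chr1:193301744-193302043, plus strand: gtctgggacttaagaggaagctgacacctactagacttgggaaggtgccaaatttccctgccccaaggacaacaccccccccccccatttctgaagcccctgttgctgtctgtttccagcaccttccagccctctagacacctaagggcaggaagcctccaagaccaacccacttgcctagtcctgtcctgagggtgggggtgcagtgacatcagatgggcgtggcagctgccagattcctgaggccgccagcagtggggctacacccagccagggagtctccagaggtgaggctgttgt
Itgb6, chr2:60722554-60722853, minus strand: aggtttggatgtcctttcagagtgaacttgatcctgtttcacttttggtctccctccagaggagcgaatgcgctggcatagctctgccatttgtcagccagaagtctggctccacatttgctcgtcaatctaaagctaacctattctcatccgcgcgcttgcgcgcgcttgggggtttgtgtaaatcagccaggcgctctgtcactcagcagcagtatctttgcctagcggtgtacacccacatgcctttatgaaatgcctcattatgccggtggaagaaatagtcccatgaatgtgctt
Hspg2, chr4:137468553-137468852, plus strand: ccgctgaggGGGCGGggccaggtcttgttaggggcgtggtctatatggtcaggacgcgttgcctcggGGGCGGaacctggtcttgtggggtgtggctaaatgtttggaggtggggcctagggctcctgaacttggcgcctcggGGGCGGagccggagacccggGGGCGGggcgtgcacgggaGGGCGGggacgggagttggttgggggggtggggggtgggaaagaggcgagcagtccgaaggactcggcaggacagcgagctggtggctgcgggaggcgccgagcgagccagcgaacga
Lamb1, chr12:31265043-31265342, plus strand: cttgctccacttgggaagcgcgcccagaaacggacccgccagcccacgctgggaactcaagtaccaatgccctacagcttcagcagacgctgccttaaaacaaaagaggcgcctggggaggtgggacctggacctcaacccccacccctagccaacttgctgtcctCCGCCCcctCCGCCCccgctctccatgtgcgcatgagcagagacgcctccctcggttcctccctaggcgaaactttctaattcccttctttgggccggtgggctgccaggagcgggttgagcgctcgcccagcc
The perlecan window held 5 GC boxes and the Lamb1 window held 2, both on the opposite strand, while the Lamb3 and Itgb6 windows held none. GGGCGG was found in 35.7% of all 32851 promoter windows of that length in the table, and in 15 of the 23 windows of the 17 tested genes found there. The AP-1 motif, searched on both strands as TGANTCA, stood in 7.81% of all windows. The TEAD motif, searched likewise as GGAATG, stood in 14.7%. The TATA box, searched likewise as TATAAA, stood in 13.6%. None of these 3 was found in the 4 windows printed, and the window of a second Lamb3 start listed by RefSeq held the TEAD letters 1 time. The 4 genes that fell thus had no searched motif in common in these windows.

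Levels ranged over more than 4 orders of magnitude among the genes. By mean FPKM over the 9 libraries, Lamb3 and Cd151 at 164, Dst at 159.9 and Agrn at 159 led, followed by Itgav at 120.3, Itga6 at 87.6 and Itgb4 at 65.9. The leading 4 did not differ beyond their spread over libraries: Lamb3 alone ran between 90.9 and 269.6 FPKM, and Cd151 between 72.9 and 213. A middle group of Lama5 at 50.1, Itgb1 at 47.9 and Lama3 at 41.1 FPKM overlapped as well. Itga3 followed at 29.2, Itgb6 at 20.1, Itgb5 at 12.5 and Lamc1 at 11.3 FPKM. Another 8 tested genes lay between 1.05 FPKM (Itga4) and 5.64 FPKM (Itgb8).

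**Figure D1:**
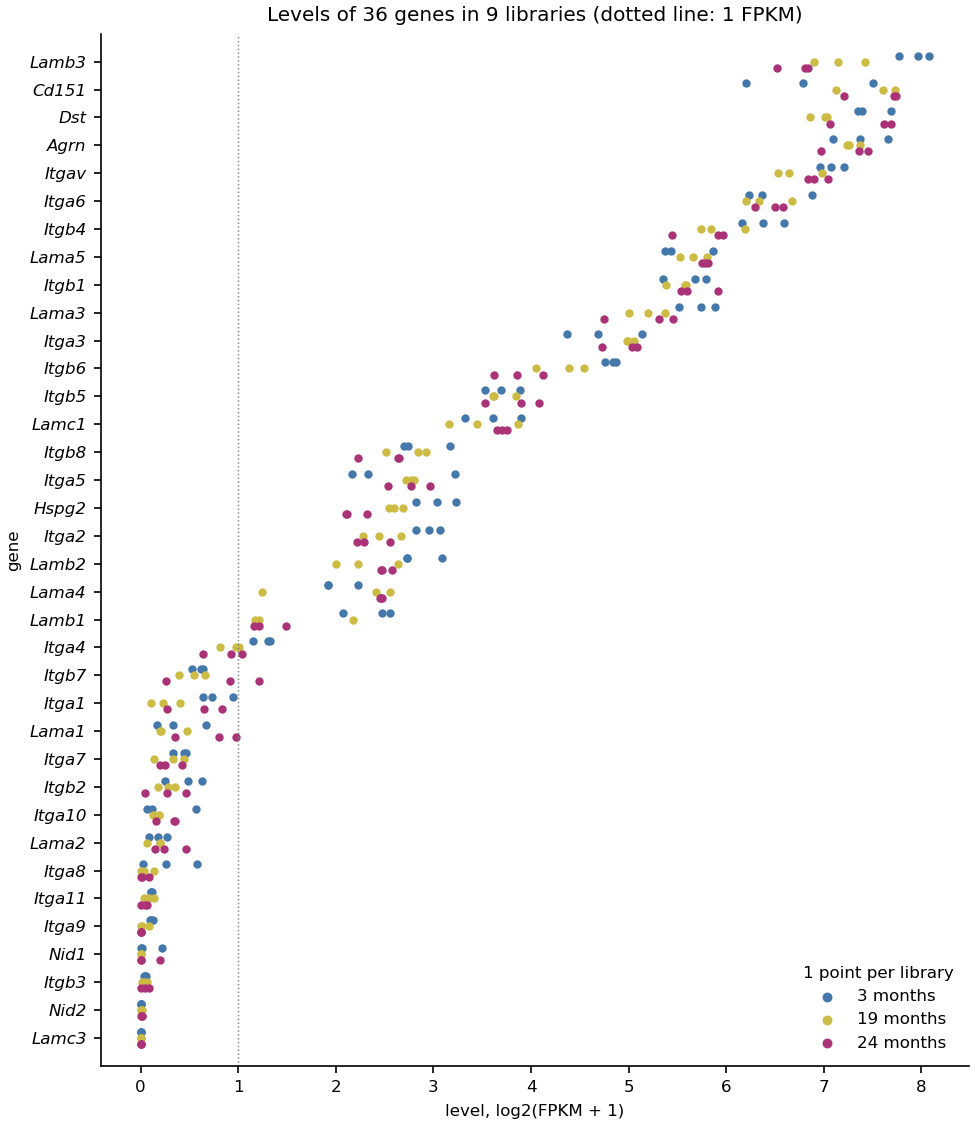
Level of 36 of the 37 genes as log2(FPKM + 1), with 1 point per library coloured by age and a dotted line at 1 FPKM. Genes are ordered by their mean over the 9 libraries, with Lamb3 and Cd151 (164 FPKM each) at the top and Lamc3 (at most 0.00541 FPKM) at the bottom.

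Within each chain family 1 or 2 genes made up most of the summed FPKM. Lamb3 held 95.9% ± 0.566 of the summed laminin beta FPKM at 3 months, 95.9% ± 0.986 at 19 months and 94.4% ± 0.801 at 24 months (SD, n = 3 each). Among laminin alpha chains Lama3 and Lama5 shared the sum, and among integrin beta chains Itgb4 and Itgb1 did.

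The 14 untested genes were at or near 0. Itgb7, a leukocyte integrin chain, reached 1.32 FPKM in its highest library, Lama1 0.973 and Itga1 0.925, and the other 11 stayed at or below 0.544. Nid1 and Nid2, the nidogens that bridge laminin and type IV collagen, were listed at 0 in 6 and 5 of the 9 libraries and reached at most 0.167 and 0.00895 FPKM. Depth is unknown in these files, so a level of this kind is a low estimate and not proof of absence. Of the tested genes, Itga4, an integrin chain of leukocytes and migrating cells, passed the filter through 5 libraries at or above 1 FPKM, 3 of them at 3 months, so a difference with age is built into its selection and its comparison is read no further.

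At 24 months, set against 3 months, 4 of the 23 tested genes had fallen and 0 had risen, which is 17.4% called, against 3.84% of all tested genes (2.34% lower and 1.5% higher). At 19 months, set against 3 months, 1 of 23 had fallen (Lamb3) and 0 had risen, or 4.35% called, against 1.56% of all genes (0.964% lower and 0.6% higher). With every library scaled to the same median, the split over all genes was 192 lower and 218 higher at 24 against 3 months, beside 269 and 173 in the fit above, and 90 lower and 86 higher at 19 against 3 months, beside 111 and 69, while the calls among the 23 were 0 higher and 4 lower, and 0 higher and 1 lower, in both. Between 24 and 19 months limma called 0 of 23, against 0.93% of all genes (0.217% lower and 0.712% higher). At an unadjusted p under 0.05 it gave 3 of 23 lower (Lamb3, Itgb6 and Hspg2), where 6.99% of all genes were, and 1 higher (Dst), where 5.77% were. The F test for a change at any age called the same 4 genes as the comparison of 24 with 3 months, against 4.54% of all genes. The median log2 change of the 23 was -0.15 at 24 months and -0.14 at 19 months, each against 3 months, beside 0.00 and 0.01 over all tested genes, and -0.02 at 24 against 19 months beside -0.02. The 23 in these counts and medians include Itga4, which was not called in any comparison and changed by -0.39 and -0.32 at 24 and 19 against 3 months. A fit over all 14275 rows with at least 1 FPKM in 3 libraries, small RNAs included, called only Lamb3 of the 37 genes at 24 against 3 months (0.203% of its rows called) and 0 at 19 against 3 months (0.28%), at 24 against 19 months (0.049%) and in the F test (0.224%).

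All 3 libraries at 24 months lay below all 3 at 3 months in 9 of the 22 tested genes other than Itga4, or 40.9% against 12% of all genes: the 4 that fell and Lama3, Itgb4, Itga2, Itgb8 and Lamb2. Only Lama4 had all 24-month libraries above all 3-month ones, where 10.6% of all genes did. At 19 months 7 of these 22, or 31.8% against 11.6% of all genes, lay below 3 months in every library: Lamb3, Lama3, Itgb6, Hspg2, Itga2, Lamb2 and Dst. None of them lay above, against 11% of all genes. Between 24 and 19 months the older libraries were all lower in Lamb3 and Hspg2, against 10.4% of all genes, and all higher in Dst, against 7.94%. Lamb3 and Hspg2 were the 2 of these 22 genes whose libraries fell without overlap at both steps, as 0.912% of all tested genes did.

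**Figure D2:**
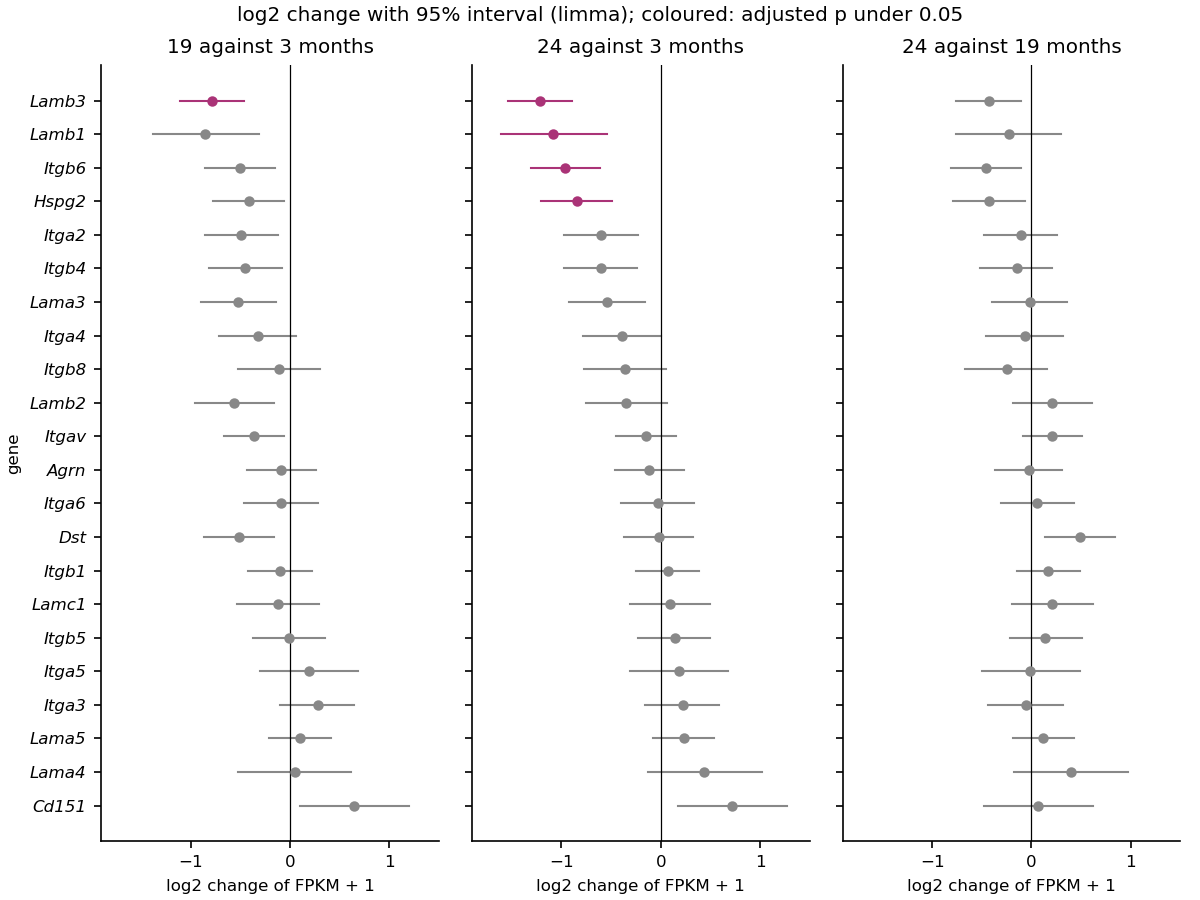
Log2 change of FPKM + 1 with its 95% interval for 22 of the 23 tested genes in the 3 pairwise comparisons of ages, with coloured points where the limma adjusted p is under 0.05. Coloured points are Lamb3 in the panel of 19 against 3 months and Lamb3, Lamb1, Itgb6 and Hspg2 in the panel of 24 against 3 months, all left of 0, and none in the panel of 24 against 19 months.

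In the hemidesmosomal laminin, Lamb3 fell and Lama3 did not pass the test. Lamb3, which encodes the β3 chain (ENSMUSG00000026639, chromosome 1), stood at 249, 269.6 and 217 FPKM in the 3-month libraries, at 169.9, 140.4 and 119 FPKM at 19 months and at 111, 113 and 90.9 FPKM at 24 months. Every older library was below every younger one at both steps. The log2 change was -1.22 ± 0.15 at 24 against 3 months (adjusted p = 0.00129), ranked 8 by p among the 11509 genes. At 19 against 3 months it was -0.78 ± 0.15 (adjusted p = 0.0163). At 24 against 19 months it was -0.43 ± 0.15 (adjusted p = 0.229), a step that did not pass the test. The fall by 19 months was lost without 3-month replicate 1 (adjusted p = 0.0735) or 2 (0.073), or without 19-month replicate 2 (0.0628) or 3 (0.105), while that by 24 months held in all 9 fits that left out a library.

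Lama3, the alpha chain of the same laminin, was lower in level than Lamb3 in every library. It had 44.7, 58.1 and 52.4 FPKM at 3 months, 40.4, 35.8 and 31.1 at 19 months and 25.9, 42.9 and 38.6 at 24 months. Both older ages lay wholly below 3 months and overlapped each other. Its log2 change was -0.54 ± 0.18 at 24 against 3 months (adjusted p = 0.1) and -0.52 ± 0.18 at 19 against 3 months (adjusted p = 0.162).

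**Figure D3:**
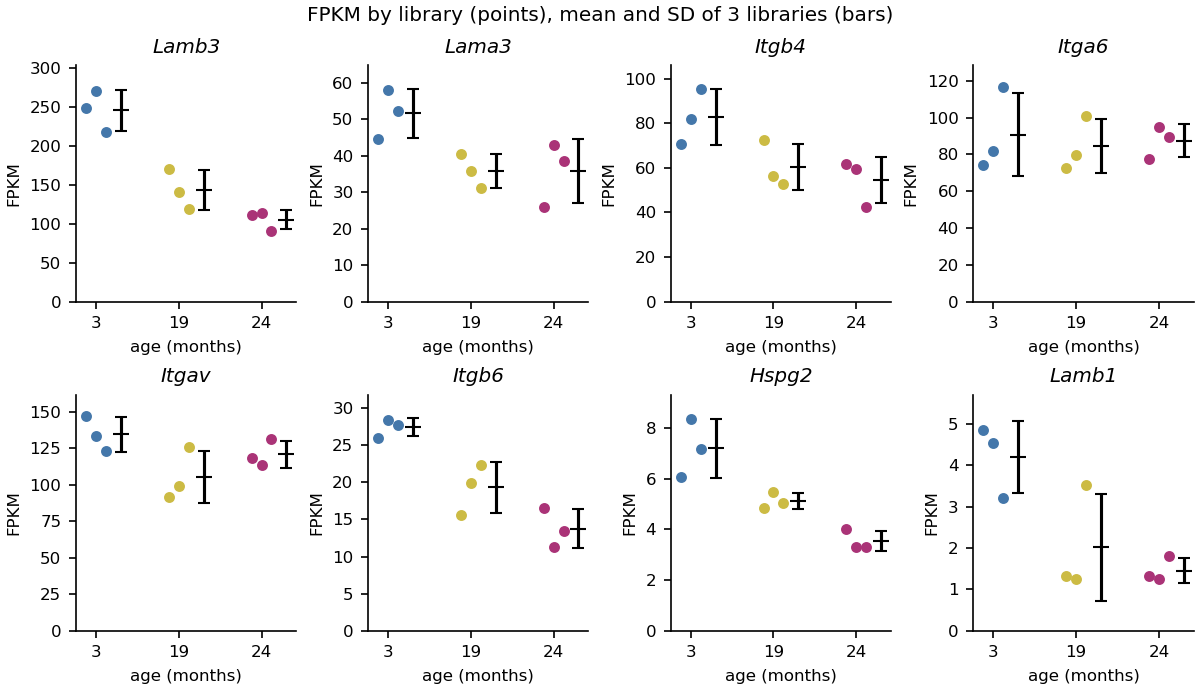
FPKM by library (points) with the mean and SD of 3 libraries (bars) at 3, 19 and 24 months for Lamb3 and Lama3, both chains of the integrin α6β4, Itgav, and the other 3 genes that fell. Lamb3 lies lower at each step without overlap, Itgav and Itga6 overlap between all ages, and 1 Lamb1 library at 19 months (3.52 FPKM) stands with the 3-month ones.

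The balance of these chains was read as ratios within each library. The FPKM ratio of Lamb3 to Lama3 was 5.57, 4.64 and 4.14 at 3 months, 4.21, 3.92 and 3.81 at 19 months and 4.29, 2.64 and 2.36 at 24 months, with overlap between the ages. Its mean was 3.10 ± 1.05 at 24 months and 3.98 ± 0.202 at 19 months, against 4.78 ± 0.727 at 3 months. The ratios were chosen after their values were seen. An exact two-sided permutation test of 3 against 3 libraries cannot go below 0.1, and this ratio gave 0.2 at each older age against 3 months. Over the 24 tests of the 8 ratios computed, no Benjamini-Hochberg value was under 0.24.

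**Figure D4:**
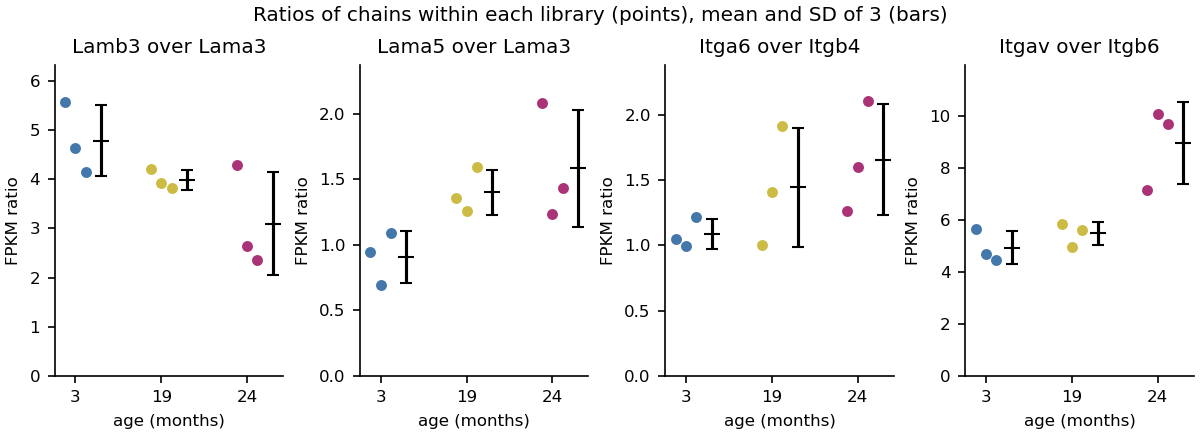
FPKM ratio of 2 chains within each library (points) with the mean and SD of 3 (bars) at 3, 19 and 24 months. The ratio of Lamb3 to Lama3 runs between 4.14 and 5.57 at 3 months and between 2.36 and 4.29 at 24 months, and that of Itgav to Itgb6 between 4.45 and 5.65 at 3 months and between 7.16 and 10.1 at 24 months.

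Neither chain of the hemidesmosomal integrin passed the test. Itga6 had 74.3, 81.7 and 116.5 FPKM at 3 months, 72.7, 79.9 and 100.9 at 19 months and 77.7, 94.99 and 89.7 at 24 months, and the ages overlapped throughout. The change at 24 against 3 months was -0.03 with a 95% interval of -0.40 to 0.34 (adjusted p = 0.937), in cells that had been gated on this protein. Itgb4, its partner chain, had 70.7, 82.1 and 95.6 FPKM at 3 months, 72.4, 56.6 and 52.7 at 19 months and 61.6, 59.4 and 42.6 at 24 months. All 24-month libraries were below all 3-month ones, with a log2 change of -0.60 ± 0.17 that did not pass the test (adjusted p = 0.0621, and 0.0483 with a robust prior). At 19 against 3 months the change of Itgb4 was -0.45 ± 0.17 (adjusted p = 0.216). The FPKM ratio of Itga6 to Itgb4 was 1.66 ± 0.426 at 24 months against 1.09 ± 0.117 at 3 months (exact permutation p = 0.1, adjusted 0.24 over 24 tests).

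Cd151, a tetraspanin that sits beside α3β1 and α6β4, had higher means at both older ages without passing the test. It had 109.6, 72.9 and 181 FPKM at 3 months, 138, 212 and 193 at 19 months and 147, 210.0 and 213 at 24 months, so that 3-month replicate 3 lay among the older libraries. The log2 change was 0.72 ± 0.26 at 24 against 3 months (adjusted p = 0.125) and 0.65 ± 0.26 at 19 against 3 months (adjusted p = 0.235). Without 3-month replicate 3 these adjusted p-values were 0.0278 and 0.0491. Dst, whose epithelial product BPAG1 ties the hemidesmosome to keratin, had 166, 162 and 205 FPKM at 3 months, 130.1, 128 and 115 at 19 months, and 132, 195 and 205 at 24 months. The 19-month libraries were the lowest of the 3 ages, below every other library. The log2 change was -0.51 ± 0.16 at 19 against 3 months (adjusted p = 0.141) and 0.49 ± 0.16 at 24 against 19 months (adjusted p = 0.208, and 0.0384 without 24-month replicate 2).

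Itgb6 (ENSMUSG00000026971, chromosome 2) was the integrin chain that fell. It had 26.0, 28.4 and 27.7 FPKM at 3 months, 15.6, 19.9 and 22.4 at 19 months and 16.5, 11.3 and 13.5 at 24 months. Both older ages were wholly below 3 months, and the older 2 overlapped through 1 library each. The log2 change was -0.96 ± 0.17 at 24 against 3 months (adjusted p = 0.00628), and it held in all 9 fits that left out a library. At 19 against 3 months it was -0.50 ± 0.17 (adjusted p = 0.15) and at 24 against 19 months -0.46 ± 0.17 (adjusted p = 0.234). In the fit over all rows the adjusted p at 24 against 3 months was 0.0674. The sole known alpha partner of this chain is αv.

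Itgav did not pass the test in any comparison. It had 147, 133 and 123 FPKM at 3 months, 91.5, 99.2 and 126 at 19 months and 118, 114 and 131 at 24 months, with overlap between all ages. The change at 24 against 3 months was -0.15 with a 95% interval of -0.45 to 0.15 (adjusted p = 0.567). At 19 against 3 months it was -0.36 with an interval of -0.66 to -0.06 (adjusted p = 0.23). The FPKM ratio of Itgav to Itgb6 was 8.98 ± 1.59 at 24 months, against 4.93 ± 0.631 at 3 months and 5.49 ± 0.452 at 19 months, with every 24-month library above every other library (exact permutation p = 0.1 for each, adjusted 0.24). Of other beta chains that pair with αv, Itgb5 averaged 12.1, 11.96 and 13.4 FPKM at 3, 19 and 24 months and Itgb8, which also activates TGF-β, 6.38, 5.82 and 4.73. Itgb8 lay below 3 months in all 24-month libraries, with a log2 change of -0.36 ± 0.19 that did not pass the test (adjusted p = 0.291).

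Itgb1, the common partner of many alpha chains, overlapped between all ages. It had 39.9, 50.3 and 54.6 FPKM at 3 months, 40.6, 47.0 and 46.8 at 19 months and 45.5, 47.4 and 59.2 at 24 months. The change at 24 against 3 months was 0.07 with a 95% interval of -0.25 to 0.39 (adjusted p = 0.826). Among its alpha partners Itga3, the chain of the other laminin receptor of basal keratinocytes, had 19.6, 24.8 and 34.3 FPKM at 3 months, 30.5, 30.8 and 32.2 at 19 months and 31.8, 32.9 and 25.5 at 24 months. Its change was 0.22 at 24 against 3 months with an interval of -0.16 to 0.59 (adjusted p = 0.511). Itga2, which with β1 binds collagen and laminin, had 6.09, 7.36 and 6.76 FPKM at 3 months, 5.37, 3.84 and 4.42 at 19 months and 3.64, 4.86 and 3.87 at 24 months. It was below 3 months in every older library without passing the test (-0.60 ± 0.17, adjusted p = 0.066 at 24 against 3 months). Itga5, the fibronectin receptor chain, averaged 5.28 ± 2.62, 5.80 ± 0.181 and 5.81 ± 1.01 FPKM at 3, 19 and 24 months.

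As shares of the summed integrin beta FPKM, Itgb6 held 15.5% ± 1.52 at 3 months, 13.5% ± 2.71 at 19 months and 9.92% ± 1.59 at 24 months. Itgb1 held 27.1% ± 1.27, 31.4% ± 3.27 and 36.7% ± 5.76 at the same ages, its libraries at 24 months all above those at 3 months. The sum itself was 178 ± 22.8, 143 ± 3.67 and 138 ± 4.12 FPKM at 3, 19 and 24 months. A share moves when any other chain of the family does.

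The second epithelial laminin, made of α5 with β1 or β2 and γ1, held 1 gene that fell, Lamb1, while Lama5, Lamc1 and Lamb2 did not pass the test. Lama5 (α5) had 42.1, 40.4 and 57.1 FPKM at 3 months, 54.7, 44.9 and 49.4 at 19 months and 54.0, 52.9 and 55.3 at 24 months, with overlap between the ages. Its change at 24 against 3 months was 0.23 with an interval of -0.08 to 0.54 (adjusted p = 0.386). Lamc1 (γ1) had 8.997, 11.2 and 13.9 FPKM at 3 months, 7.96, 13.5 and 9.88 at 19 months and 12.5, 12.02 and 11.6 at 24 months, and its change at 24 against 3 months was 0.09 (-0.31 to 0.50, adjusted p = 0.823). Lama3 held 50.9% ± 5.17 of the summed laminin alpha FPKM at 3 months, 40.0% ± 3.17 at 19 months and 37.2% ± 5.99 at 24 months, and Lama5 45.6% ± 5.72, 55.6% ± 2.65 and 57.1% ± 5.99. Lama5 was above Lama3 in each older library and also in 3-month replicate 3 (FPKM ratio 1.09). The ratio was 1.58 ± 0.445 at 24 months and 1.40 ± 0.173 at 19 months, against 0.909 ± 0.199 at 3 months (exact permutation p = 0.1 for each, adjusted 0.24).

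Lamb1 (β1, ENSMUSG00000002900, chromosome 12) was low at every age. It had 4.86, 4.54 and 3.21 FPKM at 3 months, 1.32, 1.25 and 3.52 at 19 months and 1.32, 1.25 and 1.80 at 24 months. The 24-month libraries were all below the 3-month ones, while 19-month replicate 3 lay within the 3-month range. The log2 change was -1.08 ± 0.25 at 24 against 3 months (adjusted p = 0.0278). That call was lost without 3-month replicate 1 (adjusted p = 0.0789) or 2 (0.107), and without 24-month replicate 2 (0.0703), 3 (0.063) or 4 (0.0636). At 19 against 3 months the change was -0.85 ± 0.25 (adjusted p = 0.105, and 0.0168 without 19-month replicate 3).

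Lamb2 (β2), the other chain that can take this place, had 7.48, 5.63 and 5.61 FPKM at 3 months, 5.21, 3.68 and 3.02 at 19 months and 4.55, 4.94 and 4.50 at 24 months. It was below 3 months in every older library and did not pass the test, at -0.35 (adjusted p = 0.302) at 24 months and -0.56 ± 0.19 (adjusted p = 0.157) at 19 months. Lama4 (α4), a chain of vessel and muscle basement membranes, had 2.79, 3.69 and 2.77 FPKM at 3 months, 1.37, 4.31 and 4.88 at 19 months and 4.48, 4.53 and 4.57 at 24 months. Every 24-month library was above every 3-month one, with a change of 0.44 ± 0.27 (adjusted p = 0.36).

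Hspg2, which encodes the heparan sulfate proteoglycan perlecan (ENSMUSG00000028763, chromosome 4), fell at a low level. It had 6.05, 8.37 and 7.18 FPKM at 3 months, 4.83, 5.46 and 5.05 at 19 months and 3.997, 3.31 and 3.32 at 24 months. Like Lamb3, it was lower at each step in every library. The log2 change was -0.84 ± 0.17 at 24 against 3 months (adjusted p = 0.0129), lost without 3-month replicate 2 (0.0663) or 24-month replicate 4 (0.0592). At 19 against 3 months it was -0.41 ± 0.17 (adjusted p = 0.242) and at 24 against 19 months -0.43 ± 0.17 (adjusted p = 0.277). Agrn, the other such proteoglycan and among the highest of the 37 genes, averaged 154 ± 26.4 FPKM at 24 months against 167 ± 32.9 at 3 months, and its change was -0.12 with an interval of -0.46 to 0.23 (adjusted p = 0.722).

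**Figure D5:**
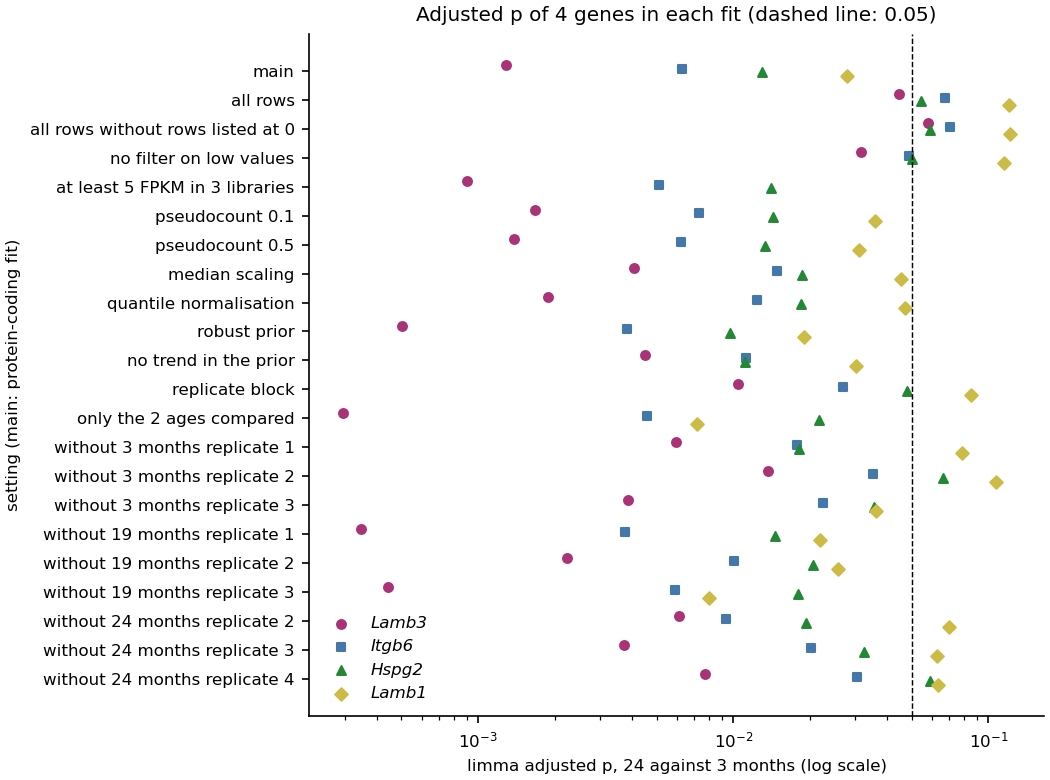
Limma adjusted p on a log scale for Lamb3, Itgb6, Hspg2 and Lamb1 at 24 against 3 months, in the fit of protein-coding genes at the top and 21 other fits below it, with a dashed line at 0.05. Lamb3 lies left of the line except in the fit of all rows without those listed at 0 (0.058), and Lamb1, absent from the fit with a minimum of 5 FPKM, lies right of it in 9 fits.

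In sorted bulk RNA, fewer cells of a type and less RNA per cell cannot be told apart. Markers of other skin cells were therefore set beside the 4 genes that fell, of which Hspg2 and Lamb1 are also made by blood vessels. Of 8 endothelial markers, Cldn5 and Emcn were listed at 0 in all 9 libraries, Cdh5 in 8, and Kdr stayed below 0.1 FPKM. The summed FPKM of the 8 ran between 12.6 and 14.9 at 3 months, 10.1 and 10.8 at 19 months and 5.64 and 7.49 at 24 months. Ramp2 and Egfl7 carried this sum, and both fell at 24 against 3 months. Of the rest, Tek averaged 0.689, 0.417 and 0.178 FPKM at 3, 19 and 24 months, and Pecam1 0.240, 0.355 and 0.189. Lama4, the vessel and muscle chain above, was higher in every 24-month library than in every 3-month one, without passing the test. Of 8 sebaceous gland markers, 7 were tested and 6 fell at 24 against 3 months. The sum of the 8 was 79.3 to 99.0 FPKM at 3 months, 32.7 to 43.2 at 19 and 30.6 to 32.9 at 24 months. Scd1 (means 41.9, 18.9 and 18.4 FPKM at 3, 19 and 24 months) and Fasn (20.7, 14.1 and 8.74) carried most of it. Far2 averaged 7.68, 1.25 and 1.26 FPKM at these ages, and Cidea 7.07, 1.07 and 1.40. The sum of 6 melanocyte markers was 12.8 to 18.6, 6.77 to 8.63 and 4.65 to 9.32 FPKM at 3, 19 and 24 months. The sum of 8 fibroblast markers, 5 of them under 1 FPKM in all libraries, was 6.13 to 8.75, 10.003 to 11.998 and 9.43 to 16.9 FPKM, carried by Col1a2, and neither of the 2 tested passed the test. The sums of smooth muscle and pericyte, leukocyte, Schwann cell, platelet and megakaryocyte, and differentiated keratinocyte markers overlapped between 3 and 24 months. For smooth muscle and pericyte the sum was 39.4 to 56.3 FPKM at 3 months and 34.7 to 47.6 at 24 months. Cspg4 carried it, averaging 47.0, 44.6 and 36.1 FPKM at 3, 19 and 24 months. Acta2 averaged 0.584, 2.38 and 3.05 FPKM at these ages, and Tagln 1.37, 1.37 and 1.91. For differentiated keratinocytes the sum was 1990 to 2941 FPKM at 3 months and 2235 to 3953 at 24 months. In these lists 1 smooth muscle and pericyte marker rose at 24 against 3 months, and no other gene was called there. The part of these cells in the values of Lamb3, Itgb6, Hspg2 and Lamb1 was not tested.

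The sources used here do not state strand use, and 6 of the tested genes share exon bases with a gene on the opposite strand in GENCODE M21: Itga4 with 8.04% of its exon bases, Itgb4 7.66%, Cd151 7.04%, Itgav 5.9%, Dst 2.52% with one such gene and 1.11% with another, and Lama3 1.83%. If strand was not kept, reads from the shared bases cannot be assigned to 1 gene of a pair. None of the 4 genes that fell has such an overlap.

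Around these genes, 61 further genes of basement membrane and integrin biology were listed, of which 50 were tested. They were chosen with earlier results of these data known, so their counts beside those of all genes can reflect that choice. At 24 against 3 months 5 of the 50 fell and 0 rose, where 2.34% of all genes fell. At 19 against 3 months 1 fell, where 0.964% of all genes did, and at 24 against 19 months 2 fell, where 0.217% did, with 0 rising in either. The median log2 change of the 50 was -0.07 at 24 and -0.12 at 19 against 3 months, and -0.05 at 24 against 19 months.

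The genes that fell at 24 against 3 months were those of 4 matrix proteins and a receptor. The matrix proteins, of 12 tested other than collagens, were tenascin C (Tnc, -2.30 ± 0.31, adjusted p = 0.00197), nephronectin (Npnt, -1.23 ± 0.19, adjusted p = 0.00439), peroxidasin (Pxdn, which crosslinks type IV collagen, -0.93 ± 0.18, adjusted p = 0.0121) and fibulin 2 (Fbln2, -0.85 ± 0.18, adjusted p = 0.0163). Tnc and Npnt were also the 2 that fell at 24 against 19 months (both adjusted p = 0.0311). These last calls were lost in 4 of 9 fits that left out a library for Tnc and in 5 of 9 for Npnt, and that of Fbln2 without 3-month replicate 2 (adjusted p up to 0.0817) or 3 or 24-month replicate 4.

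Dag1, which encodes dystroglycan, the receptor that binds perlecan, agrin and laminin alpha chains, fell as well. It had 14.7, 17.5 and 16.6 FPKM at 3 months, 11.4, 12.6 and 11.6 at 19 months and 7.70, 9.63 and 7.49 at 24 months, with no overlap between any ages. Its log2 change was -0.90 ± 0.15 at 24 against 3 months (adjusted p = 0.00573), and it was the 1 gene of the 50 also called in the fit over all rows (adjusted p = 0.0448). The 3 tested hemidesmosome and anchoring fibril genes beside the integrins (Col17a1, Plec and Col7a1) and 7 tested basement membrane collagens gave 0 calls in limma in any comparison.

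Of 24 tested genes of integrin activation and signalling, 1 fell, Kank1, an adaptor that binds talin at adhesions. It had 287.9, 306.8 and 235 FPKM at 3 months, 148, 126 and 118 at 19 months and 168, 290.9 and 204 at 24 months. Its log2 change was -1.07 ± 0.18 at 19 against 3 months (adjusted p = 0.0077) and 0.72 at 24 against 19 months (adjusted p = 0.0824), the highest of the 50 in that comparison. The highest changes at the other steps were 0.53 for Sgce at 24 against 3 months (adjusted p = 0.142) and 0.45 for Rsu1 at 19 against 3 months, neither of which passed the test.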

How the data were processed

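RNA of sorted hair follicle stem cells was measured in 9 libraries, 3 at each of 3 ages. The authors' deposited table gives 1 FPKM value per gene and library. TopHat, Cuffdiff and the build NCBIM37 are named, per the submitters' processing notes. The sources used here do not give their versions, settings or strand use. Depth is unknown, so no counting interval is given.

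Groups came from the age label. Values were tested as log2(FPKM + 1) with limma 3.58.1 (R 4.3.3), with a mean-dependent prior variance, Benjamini-Hochberg adjustment over all genes tested and a threshold of 0.05. The main fit kept protein-coding genes (GENCODE M21 gene types, matched by Ensembl ID for 32920 of 37980 rows) that reached 1 FPKM in 3 or more libraries, and left out 36 rows in which every library of an age was 0 while every library of another age reached 5 FPKM. It was known from an earlier analysis of these data to call more genes than a fit of all rows, which is the first alternative. The genes, marker and partner lists were likewise chosen with earlier results of these data known.

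Genes described in full were those called, the genes of the hemidesmosome, its laminin and the main laminin receptors whether called or not, and the 3 uncalled genes with the smallest p in each comparison. From the partner list, those called and the lowest and highest change were named. The other genes with values in the text were chosen after their values were seen. Ratios of chains were tested with exact two-sided permutation over libraries. Alternatives changed the rows, the filter, the pseudocount (0.1 or 0.5), the scaling, the prior, the ages in the fit, the replicate block, and left out each library in turn. Reference coordinates and promoter sequences are RefSeq GRCm38.p6 and were not combined with coordinates of NCBIM37. Of the 37 genes, 25 were in the promoter table. The counts cover all 37 genes, and values of 1 of them are not reported here.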

Additional observations from a re-analysis of the deposited data

How the results depend on the processing

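The rows entered decided most counts. The main counts of the 23 genes called were 1 (19 against 3 months), 4 (24 against 3 months), 0 (24 against 19 months) and 4 (F test), beside 180, 442, 107 and 523 over all genes. The fit of all rows called 0, 1, 0 and 0 of the genes and 40, 29, 7 and 32 rows, and without the rows listed at 0 it called 0 of the genes in each test and 27, 0, 0 and 0 rows. With no filter on low values the counts were 0, 2, 0 and 1 of the genes and 53, 118, 0 and 59 of all. Quantile normalisation and a prior without trend each called 59 genes at 24 against 19 months.

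Leaving out each library in turn gave 0 to 2, 2 to 5, 0 to 1 and 1 to 4 of the 23 genes, and 69 to 230, 136 to 456, 20 to 216 and 190 to 541 genes in all. The replicate numbers are only shared: residuals of same-numbered libraries correlated between -0.197 and 0.187, so they were not taken as pairs. The replicate block as a term gave 2 of the genes in the F test and 158 genes at 24 against 3 months. In that comparison it ended the call of Lamb1 (adjusted p = 0.0855) and of no other of the 4 genes. At 24 against 3 months, 4 of the 9 fits that left out a library called Lamb1, 7 of 9 Hspg2, and 9 of 9 Lamb3 and Itgb6.

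No called value changed sign in the fits run, and 30 of 942 values of named genes without a call did. Scaling moved the median change of all genes to at most 0.051. Lamb1 had no value at a minimum of 5 FPKM, and the F test was not run with 2 ages. Unknown depth, 3 libraries per age and zeros that can be failed estimates limit all levels near 0.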
